A study of Sus scrofa with 20 samples.

Results

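The interferon response genes, a list of 33 genes that cells switch on after contact with interferon or viral RNA, were described in the hypothalamus of 20 adult German Landrace pigs. The array annotation carried a probe set under the name of 30 of the 33 genes, with 67 probe sets in all, out of 13755 genes named on the array. IRF7, SAMD9 and IFI44L had no probe set of that name. For a gene with several probe sets, which was the case for 19, the one of highest mean over all arrays was used. Of the 30 genes, 28 passed the filter on low values, and IFIH1 and IFIT2 did not.

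The animals were 10 low-reactive (LR) and 10 high-reactive (HR) pigs, terms for how an animal answers a stressor, and each contributed 1 Affymetrix Porcine Snowball array. The study chose them both by their behaviour in a restraint test early in life and by their haplotype at a coping region of chromosome 12, so that the behaviour and the haplotype cannot be told apart in the comparison of HR with LR. No treatment or infection of the animals is named, and the labels state neither sex nor hybridisation batch. Replicate numbers follow the order of deposition, only name an array, and pair nothing between the groups.

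Interferons are secreted proteins that bind receptors on the cell surface and, through Janus kinases, activate STAT2, which enters the nucleus in a complex with IRF9. There the complex switches on a broad set of genes whose proteins bind or degrade viral RNA, block virus assembly and release, or raise antigen presentation. In the brain, neurons, astrocytes, microglia and endothelial cells can all respond, and a low tonic expression of many of these genes is usual without infection. In bulk tissue, fewer cells of a type and less RNA per cell cannot be told apart.

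All values are log2 intensities after robust multichip averaging, on which 1 unit is a 2-fold difference. The hypothalamic peptide genes AVP, which encodes vasopressin, and OXT, which encodes oxytocin, had mean log2 values of 12.01 and 11.92. The medians of the arrays lay between 5.14 and 5.26. Unspecific binding was read from 69 control probe sets of the array that target no transcript, whose mean is called the background control mean here. It lay between 3.68 and 4.44, with 4.01 ± 0.17 over the LR and 4.09 ± 0.26 over the HR arrays (SD, n = 10). LR replicates 3 and 8 and HR replicates 8 and 9 had the lowest background and HR replicates 4 and 5 the highest, and many genes of all kinds stood apart on these arrays. A strict limit for detection, the 95th percentile of the background control probe sets of the same array (7.25 to 8.37), was passed on at least 16 arrays by 5 of the 30 genes, STAT2, IRF9, MX1, MX2 and IFI6, against 23.9% of the genes past the filter on low values. OAS2 passed it on 13 arrays and GBP1 on 4, while 17 genes, IFI44 and XAF1 among them, passed it on none. The share of all genes past the filter that passed it on no array was not counted. Deviations and differences of genes under this limit are printed as measured, and unspecific signal can make up part of their level.

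None of the 28 tested interferon response genes passed the test between HR and LR animals, while single animals of both groups stood high for a part of the list. In HR replicate 2, 12 of the 30 genes lay more than 0.5 log2 units above the median of the 20 arrays, compared with 1.48% of the 10317 genes that passed the filter. This array was singled out beforehand because genes of the list were known to be raised in it. Its counts therefore describe a picked array and are not a test. The 4 arrays of lowest background stood high for another part of the list, DDX58, IFIT1 and IFIT5, together with a wide range of other genes. The map of all 30 genes by array shows both patterns.

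**Figure D1:**
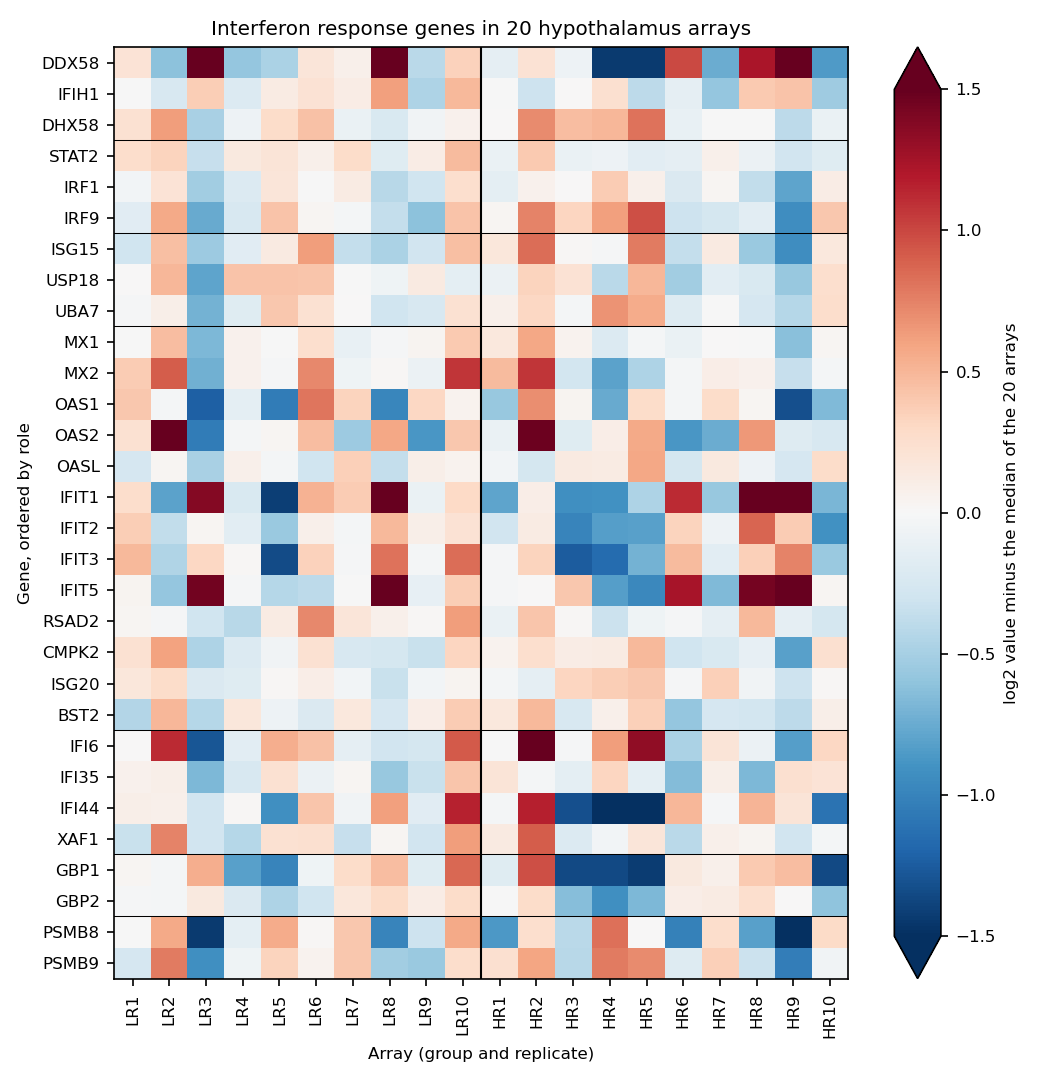
Log2 value minus the median of the 20 arrays for the 30 measured interferon response genes (rows, ordered by role, with lines between roles) in each array (columns, 10 LR then 10 HR); colours end at 1.5 log2 units either way. HR2 (HR replicate 2) is high for OAS2, IFI6, IFI44 and MX2, and the columns LR3, LR8, HR8 and HR9 are high for DDX58, IFIT1 and IFIT5.

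HR replicate 2 was examined gene by gene. Over all 30 genes, 26 lay above the median of the 20 arrays in this animal. The median deviation was 0.37 log2 units (-0.01 for all genes past the filter). None lay more than 0.5 units below, against 1.22% of all genes past the filter, so that this count says little about the list. For 7 genes this animal was the highest of all arrays, and the share of all genes at their highest there was not counted. Above 1 log2 unit lay 4 of 30, IFI6, OAS2, IFI44 and MX2, against 0.107% of all genes past the filter. These 4 were among the 11 genes of this array above that size and ranked 3, 4, 8 and 9 of all genes past the filter.

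IFI6, on chromosome 6 (84852782 to 84858072, Sscrofa11.1 RefSeq annotation), encodes a small interferon-induced protein that stabilises mitochondria and, in human cells, blocks flavivirus replication. In LR its log2 value was lowest at 8.22, with a median of 9.44 and a highest value of 10.63, and in HR the lowest was 8.67, the median 9.60 and the highest 11.00. The highest HR value was HR replicate 2, at 1.49 above the median of all arrays, HR replicate 5 followed at 1.33, and LR replicate 2 was the highest LR array at 1.12. The groups overlapped over most of their range, and LR replicate 3 was the lowest array of all.

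OAS2 (chromosome 14, 38827667 to 38847697) encodes an enzyme that, on binding viral RNA, makes a short oligoadenylate that activates RNase L. Its LR values had a lowest of 7.26, a median of 8.44 and a highest of 9.84, and its HR values a lowest of 7.44, a median of 8.17 and a highest of 9.78. The highest values were 1 array of each group, LR replicate 2 and HR replicate 2, which lay 1.53 and 1.47 above the median of all arrays, and the next HR array reached 8.96. All 3 probe sets of OAS2 were high in HR replicate 2, with deviations of 1.47, 1.28 and 1.43, and in all 3 the highest array was LR replicate 2. The brightest is one of the probe sets that can bind several transcripts, and the other two are not.

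IFI44 (chromosome 6, 134634679 to 134649857) encodes a cytoplasmic protein that restrains cell growth and some viruses. In LR it had a lowest of 5.34, a median of 6.30 and a highest of 7.41, and in HR a lowest of 4.59, a median of 6.23 and a highest of 7.42. HR replicate 2 and LR replicate 10 stood at the top with deviations of 1.16 and 1.15. At the other end, HR replicates 3, 4, 5 and 10 lay at least 1.11 log2 units below the median of all arrays, at 4.93, 4.59, 4.74 and 5.15. These are the 4 arrays of highest background, with 12.9% to 28.9% of all genes past the filter more than 0.5 units below the median, and the r of IFI44 with the background control mean was -0.83 within HR and -0.19 within LR. IFI44 did not pass the detection limit on any array.

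MX2 encodes a dynamin-like GTPase that acts against viruses at the nuclear pore, and lies beside MX1 on chromosome 13 (MX2 from 204798633 to 204821612 and MX1 from 204843049 to 204868927). MX2 in LR had a lowest of 7.69, a median of 8.45 and a highest of 9.49, and in HR a lowest of 7.61, a median of 8.38 and a highest of 9.49. HR replicate 2 and LR replicate 10 lay equally high, 1.07 above the median of all arrays each, and LR replicates 2 and 6 followed at 0.91 and 0.72. MX1, a cytoplasmic GTPase against influenza virus, had an HR median of 9.58 and reached 10.16 in HR replicate 2, the highest of all arrays, against 10.04 for the highest LR array.

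A further 8 genes lay between 0.5 and 1 log2 unit above the median in HR replicate 2. GBP1, a guanylate-binding GTPase of the defence against intracellular pathogens, lay 0.96 above it, XAF1, which promotes cell death by opposing the inhibitor XIAP, 0.91, and ISG15, a ubiquitin-like protein that is attached to other proteins, 0.83. IRF9, the DNA-binding subunit of the complex named above, lay 0.74 above, DHX58, a helper of the RNA sensors, 0.71, OAS1, a second oligoadenylate synthetase, 0.70, PSMB9, an immunoproteasome subunit, 0.59, and MX1 0.59. On the probe sets used, GBP1, XAF1, ISG15 and MX1 were at their highest of all arrays in this animal. Those used for GBP1 and ISG15 can bind several transcripts, and the others of these genes did not have their highest value there. The second probe set of GBP1 lay 0.66 above the median in HR replicate 2 and was highest in LR replicate 10, at 0.78. The other probe sets of ISG15 lay 0.74 and 0.10 above it and were highest in HR replicate 5, and that of XAF1, below the filter, lay at -0.17. Those of PSMB9, all past the filter, lay at 0.57, 0.11 and 0.06 in HR replicate 2. Those of OAS1, past the filter too, lay at 0.69 and 0.37, and that of DHX58, below the filter, at 1.09.

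On the probe sets used, the other 18 genes lay less than 0.5 log2 units from the median in HR replicate 2, 14 above it and 4 below. BST2, which tethers budding virus to the cell surface, lay 0.49 above, RSAD2, whose product viperin makes a chain-ending nucleotide, 0.41, and STAT2, the partner of IRF9, 0.40. In the IFIT family, which binds foreign RNA, the deviations were 0.10 for IFIT1, 0.12 for IFIT2, 0.33 for IFIT3 and 0.01 for IFIT5. OASL, a synthetase-like protein without enzyme activity in human, lay at -0.27, IFIH1, the RNA sensor MDA5, at -0.31, ISG20, an RNA exonuclease, at -0.13 and IFI35, a signalling regulator, at -0.03. For STAT2 and BST2 this animal still ranked 2 of 20, and for RSAD2 it ranked 4. Other probe sets of some of these genes read differently here. Those of BST2 lay at 0.60, 0.45 and 0.14, the last below the filter. Below the filter as well, that of IFIT2 lay at 0.55 and that of IFIT3 at 0.52. Those of OASL lay at 0.28 and 0.45, that of IFI35 at 0.21 and that of IFIH1 at -0.90, all below the filter.

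**Figure D2:**
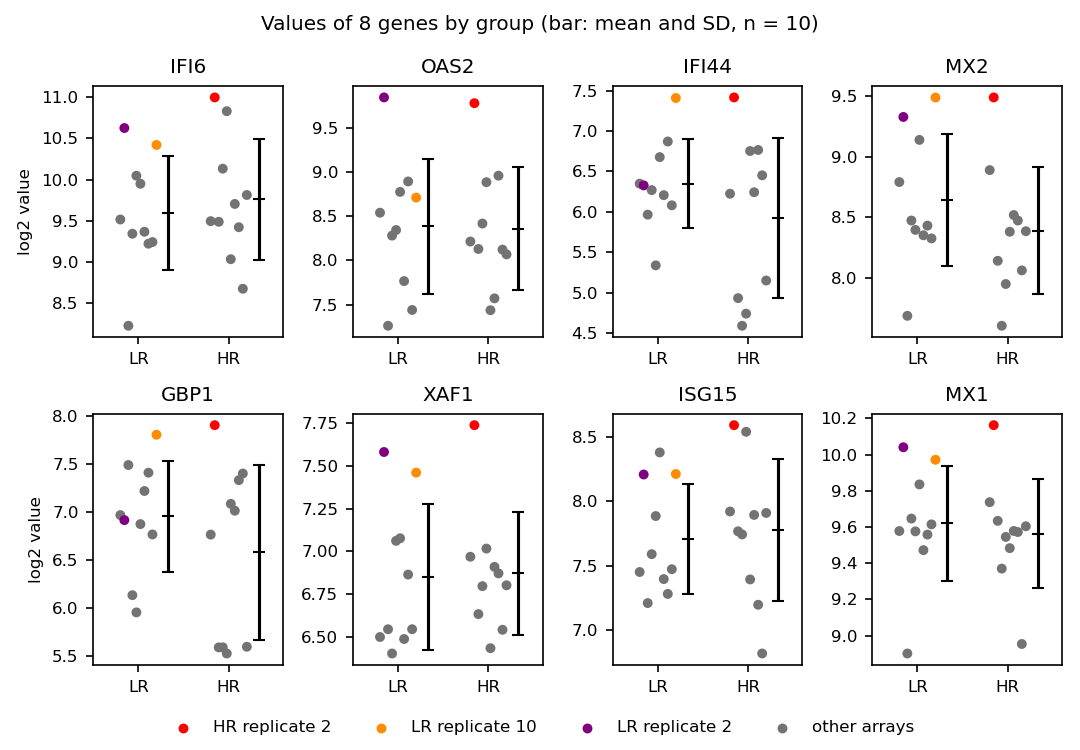
Log2 value of 8 interferon response genes in each of 10 LR and 10 HR arrays (points), with the mean and SD of each group (bar, n = 10); each panel has its own axis. HR replicate 2 (red) is the highest HR array in every panel, and LR replicate 10 (orange) or LR replicate 2 (purple) lies near it in most, as for OAS2 at 9.84 in LR replicate 2 and 9.78 in HR replicate 2.

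HR replicate 2 was not the only array of this kind. In LR replicate 10, 29 of the 30 genes lay above the median of the 20 arrays. The median deviation of the 30 was 0.39, against 0.01 for all genes past the filter. Above 0.5 units lay 8 (MX2, IFIT3, RSAD2, IFI6, IFI44, XAF1, GBP1 and PSMB8) against 1.16% of all genes past the filter. MX2 and IFI44 lay above 1 unit there, against 0.116%. In LR replicate 2, 10 genes lay above 0.5 (DHX58, IRF9, USP18, MX2, OAS2, CMPK2, IFI6, XAF1, PSMB8 and PSMB9) against 2.38%, and OAS2 and IFI6 above 1, against 0.107%.

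LR replicate 6 had 5 genes above 0.5 (ISG15, MX2, OAS1, IFIT1 and RSAD2) against 0.882% of all genes, and none above 1. HR replicate 5 had 8 above 0.5, but 18.8% of all genes past the filter lay above 0.5 in that array, and IFI6 alone lay above 1, against 0.417%. MX2 was shared by HR replicate 2 and LR replicates 2, 6 and 10, and IFI6 and XAF1 by HR replicate 2 and LR replicates 2 and 10. IFI6 also lay above 0.5 in LR replicate 5 (0.54), HR replicate 4 (0.63) and HR replicate 5 (1.33). Of all genes past the filter, 3.73%, 14.8% and 18.8% lay above 0.5 in those arrays. In the opposite direction, LR replicate 3 had 13 of 30 genes more than 0.5 units below the median, against 16.6% of all genes.

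Background was examined next, since the level of many genes on these arrays moved with it. Across the 20 arrays, Pearson's r of a gene with the background control mean lay between -0.92 (DDX58) and 0.85 (UBA7) within the list. It was above 0.7 for 7 genes, IRF1, IRF9, UBA7, OASL, ISG20, PSMB8 and PSMB9, against 38.7% of all genes past the filter, and below -0.7 for another 7, DDX58, IFIT1, IFIT2, IFIT3, IFIT5, GBP1 and GBP2, against 28.3%. These are descriptions over 20 arrays that share 1 normalisation. The share of the list beyond either limit was below that of all genes, and the other 16 genes lay between the limits, among them MX1, MX2, OAS1, OAS2, IFI44, XAF1 and STAT2.

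DDX58 encodes RIG-I, the sensor of viral RNA ends in the cytoplasm. Its LR values had a lowest of 5.83, a median of 6.58 and a highest of 8.18, and its HR values a lowest of 5.01, a median of 6.34 and a highest of 8.58. LR replicates 3 and 8 and HR replicates 8 and 9 lay 1.73, 1.49, 1.23 and 2.13 above the median of all arrays, and these are the arrays of lowest background. Its r with the background was -0.85 within LR and -0.96 within HR.

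IFIT1, which recognises RNA caps that lack a host methyl group, had a lowest of 3.98, a median of 5.67 and a highest of 6.96 in LR and a lowest of 4.47, a median of 4.88 and a highest of 7.04 in HR. The same 4 arrays lay 1.38, 1.57, 1.58 and 1.65 above the median, and HR replicate 6 lay 1.12 above. IFIT5, which binds RNA with a triphosphate end, had a lowest of 6.16, a median of 6.73 and a highest of 8.27 in LR and a lowest of 5.77, a median of 6.76 and a highest of 8.47 in HR, with these 5 arrays at the top again, each at least 1.23 above the median. The background percentages of all genes past the filter above 1 unit were 8.39% in LR replicate 3, 5.11% in LR replicate 8, 3.38% in HR replicate 8, 9.23% in HR replicate 9 and 1.23% in HR replicate 6. The probe sets used for DDX58, IFIT1 and IFIT5 can each bind several transcripts, and the part of the background in these levels was not tested.

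The genes high in HR replicate 2 were not of 1 kind in this respect, as the plot of both measures shows. IFI6 had an r of 0.67 with the background and IFI44 of -0.67, while OAS2 had 0.14 and MX2 -0.03. The background control mean of HR replicate 2 was 4.003, near the middle of the range. When a line on the background control mean was fitted for each gene and removed, 13 of 30 genes lay above 0.5 in HR replicate 2 (1.64% of all genes) and 6 above 1 (0.116%), with XAF1 and GBP1 joining the 4. IFI6 then lay 1.64 above the median, OAS2 1.53, IFI44 1.27 and MX2 1.08.

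With the same line removed, LR replicate 10 had 9 genes above 0.5 (1.88% of all genes), LR replicate 2 had 7 (0.931%) and LR replicate 6 had 6 (1.93%), and every other array had at most 2. In those other arrays the share of all genes above 0.5 ran from 0.417% to 5.17%. Among the arrays of lowest background, LR replicate 8 and HR replicate 8 had 2 each, OAS2 and IFI6, against 0.417% of all genes in both. HR replicate 9 had 2 (4.98%) and LR replicate 3 had 0 (5.17%). Such a line is set largely by the arrays of extreme background and moves an array near the middle of the range, as HR replicate 2, little, so the counts of these arrays are not a test of what set them.

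**Figure D3:**
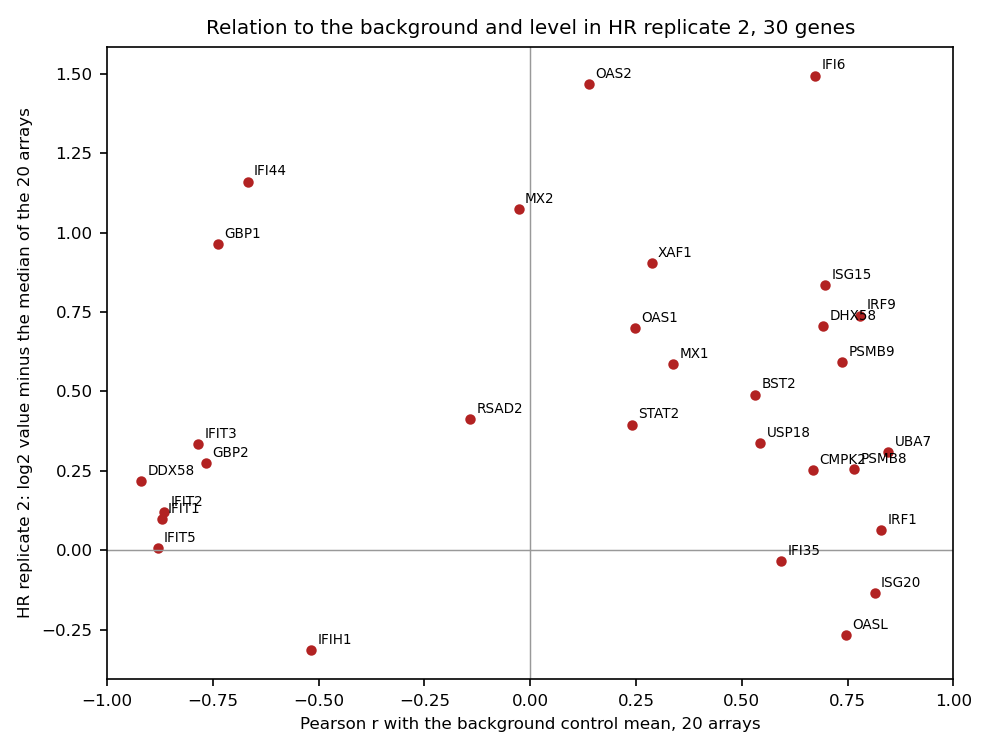
Each point is 1 of 30 interferon response genes, placed by its Pearson r with the background control mean over 20 arrays (horizontal axis) and its log2 value in HR replicate 2 minus the median of the 20 arrays (vertical axis). The 4 genes above 1 log2 unit lie at an r between -0.67 (IFI44) and 0.67 (IFI6).

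**Figure D4:**
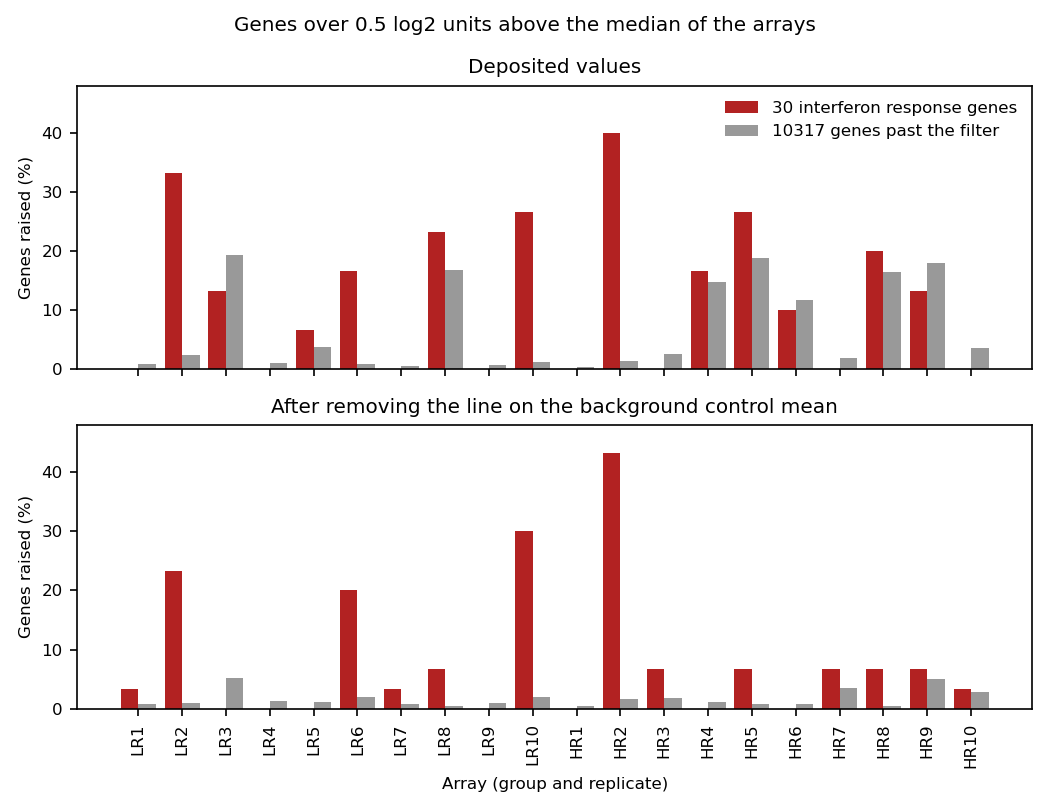
Percentage of genes more than 0.5 log2 units above the median in each array, for the 30 interferon response genes (red) and the 10317 genes past the filter (grey), before (top) and after (bottom) removal of the line on the background control mean. HR2, LR2, LR6 and LR10 stand out from the grey bars in both panels, with 13, 7, 6 and 9 of 30 genes in the lower one.

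The genes of the list were not uniform in how they varied together. Over the 435 pairs of the 30 genes, the median r across the 20 arrays was 0.32, 157 pairs had an r above 0.5 and 61 one below -0.5. After removal of the line on background 149 pairs were above 0.5 and 3 below -0.5, with a median of 0.34. Pairs of all genes past the filter were not counted. Of those genes, 38.7% had an r with the background above 0.7 and 28.3% below -0.7. The pair counts are therefore not shown to be particular to the list. These r values are descriptions over 20 arrays, and the arrays share depth of signal and normalisation.

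Pairs of genes that lie side by side in the genome were read in the same way, with differences between pairs not tested. MX1 and MX2 had an r of 0.85 (rho 0.81), 0.81 without HR replicate 2 and 0.91 with the line removed. GBP1 and GBP2 (chromosome 4, 127425699 to 127442132 and 127387222 to 127408729) had an r of 0.93 (0.85 with the line removed), and IFIT2 and IFIT3, on chromosome 14 at 101193421 to 101204292 and 101214730 to 101225169, one of 0.87 (0.63 with the line removed). OAS1 (chromosome 14, 38851083 to 38867427), the neighbour of OAS2, had an r of 0.27 with it (0.24 with the line removed), and RSAD2 and CMPK2, a mitochondrial nucleotide kinase gene next to RSAD2 on chromosome 3 (128880853 to 128897809 and 128903395 to 128917873), one of 0.29 (0.52 with the line removed). The probe sets used for GBP1, OAS1 and OAS2 can bind several transcripts, and the part of this in their r was not tested.

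DDX58 and IFIT5, which are both low where background is high, had the highest r of all pairs at 0.94 (rho 0.87) and 0.69 with the line removed. IRF1, a transcription factor of the interferon gamma response, and PSMB8, an immunoproteasome subunit, had an r of 0.94 (rho 0.95) and 0.84 with the line removed. MX2 and IFI44 had an r of 0.70 before and 0.91 after removal of the line, the highest value of all pairs after removal.

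The comparison of HR with LR asked whether the coping groups differ in the level of these genes. With limma over all 23861 probe sets past the filter, 0 of 28 genes passed an adjusted p of 0.05 (0.0% of all probe sets) and 0 had an unadjusted p under 0.05 (4.57% of all probe sets). The smallest adjusted p of the list was 0.861. The difference was negative for 17 genes and positive for 11, with a median of -0.04 log2 units against 0.00 for all genes past the filter. For the list it was -0.11 without HR replicate 2, where leaving out an HR array that stood high lowers it by itself. Without HR replicate 9 it was 0.01. All 30 genes overlapped between the groups, as did every gene past the filter (0.0% did not overlap).

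STAT2 (chromosome 5, 21733030 to 21748960) had the smallest p of the list. Its LR values had a lowest of 7.81, a median of 8.33 and a highest of 8.63, and its HR values a lowest of 7.86, a median of 8.06 and a highest of 8.55. HR lay 0.20 log2 units below LR on average, with a limma difference of -0.20 ± 0.10 (SE), an unadjusted p of 0.0695 and an adjusted p of 0.861. The highest HR array was HR replicate 2, and without it the difference was -0.25 with an unadjusted p of 0.0191. Leaving out the highest array of HR lowers the HR mean by itself, so this is no test. Without LR replicate 10, the highest LR array, the difference was -0.16. Without LR replicate 2 it was -0.18, with an unadjusted limma p of 0.117.

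GBP2, a relative of GBP1, was next, with a lowest of 6.58, a median of 7.10 and a highest of 7.33 in LR and a lowest of 6.13, a median of 7.04 and a highest of 7.32 in HR. Its difference was -0.21 ± 0.16, and HR replicate 4 was the lowest array of all. GBP1 had a lowest of 5.95, a median of 6.94 and a highest of 7.80 in LR and a lowest of 5.52, a median of 6.89 and a highest of 7.91 in HR, with a difference of -0.37 ± 0.32. IFI44 had the most negative difference, -0.42 ± 0.33, and MX2 had -0.25 ± 0.22. For GBP2, IFI44, GBP1 and MX2 the unadjusted p of limma ran from 0.203 to 0.273 and the adjusted p from 0.861 to 0.868. For IFI44 and GBP1 the HR group held both the highest array, HR replicate 2, and the lowest arrays, and the SD was 0.99 and 0.92 in HR against 0.56 and 0.58 in LR (n = 10, spread not tested). The low HR arrays of both genes, HR replicates 3, 4, 5 and 10, were those of highest background, the r of each gene with the background within HR was -0.83, and the background itself had an SD of 0.26 in HR and 0.17 in LR. With the background control mean as a covariate the differences were -0.22 for IFI44, -0.16 for GBP1 and -0.10 for GBP2, and with array weights that of MX2 was -0.04. The part of the background in these differences was not tested.

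The most positive differences were IRF9 with 0.21, IFI6 with 0.16 and UBA7, the enzyme that activates ISG15, with 0.15. The 95% interval lay within 1 log2 unit either way for 24 of the 28 genes and within 0.5 for 14, so that differences of that size lay outside the interval for those genes only. The intervals of IFI44, GBP1, IFIT1 and DDX58 reached beyond 1 unit below zero. Both sensors past the filter differed little against their spread, with -0.20 ± 0.42 for DDX58 and 0.12 ± 0.16 for DHX58.

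**Figure D5:**
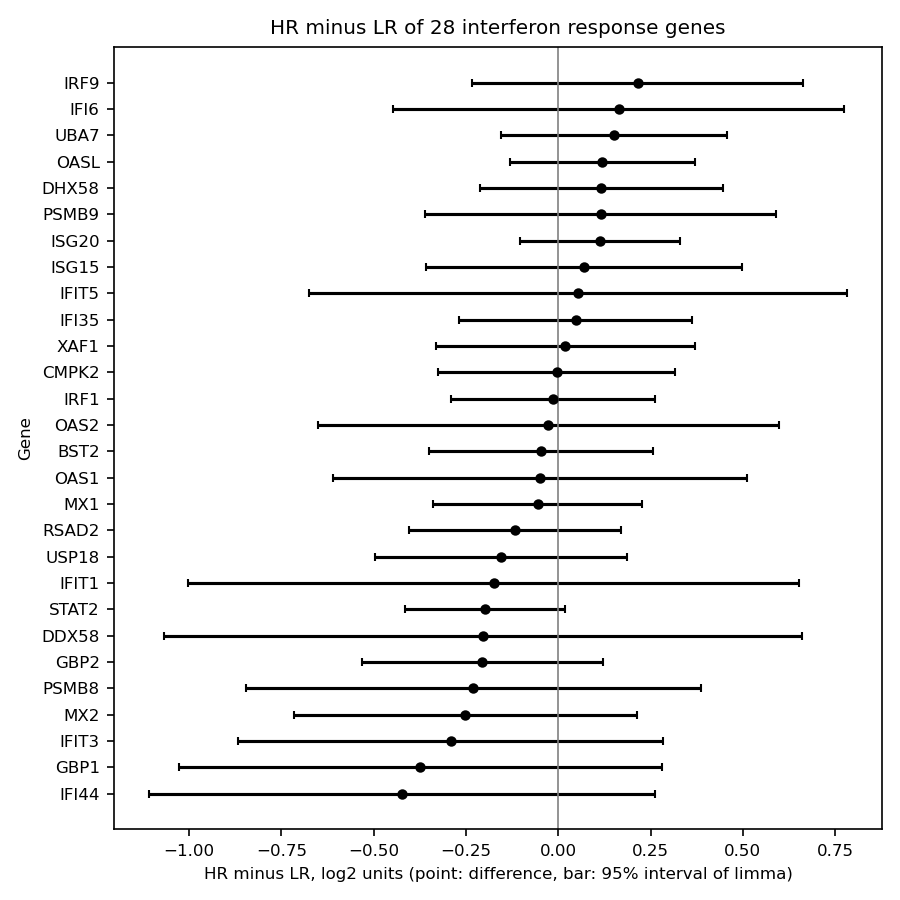
Difference HR minus LR in log2 units for the 28 interferon response genes past the filter (points), with the 95% interval from limma (bars), ordered by size. Every interval includes 0, and the differences run from -0.42 (IFI44) to 0.21 (IRF9).

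By role, 2 of 3 transcription factors, 9 of 12 antiviral effectors and both guanylate-binding proteins past the filter had a negative difference, and 3 of 4 other interferon-induced proteins a positive one, where 49.96% of all genes past the filter had a negative one. None of these differences passed an unadjusted p of 0.05, so the counts describe signs only. USP18, which takes ISG15 off its targets, had -0.15 and ISG15 had 0.07. PSMB8 and PSMB9 (chromosome 7, 25058456 to 25061666 and 25072133 to 25077508), which replace standard subunits in the proteasome and help make peptides for antigen presentation, had -0.23 and 0.11. IFIH1 and IFIT2 were not tested, with means of 4.05 and 4.92 below the limit of 5.21. IFIH1 ranged from 3.58 through a median of 4.16 to 4.66 in LR and from 3.46 through 3.98 to 4.47 in HR. IFIT2 ranged from 4.47 through 5.08 to 5.51 in LR and from 4.04 through 4.85 to 5.89 in HR.

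Other genes of the pathway were read from lists. Of 50 other interferon-induced genes 35 had a probe set and 25 passed the filter, and none passed the adjusted threshold between HR and LR. At an unadjusted p under 0.05 lay 1 of the 25, a share close to the 4.57% of all probe sets. This was ZNFX1, an antiviral RNA-binding protein, by limma with a difference of -0.30, an unadjusted p of 0.0474 and an adjusted p of 0.861. Of 25 ligands, receptors and signal proteins 18 had a probe set and 13 passed, of which 1 had an unadjusted p under 0.05. IL10RB, a receptor chain shared by interferon lambda and interleukin 10, had a difference of -0.23, an unadjusted p of 0.0385 and an adjusted p of 0.861. None of 11 nucleic acid sensors and adaptors past the filter, and none of 9 MHC class I genes, reached an unadjusted p of 0.05.

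In HR replicate 2, 9 of the 35 other interferon-induced genes lay above 0.5 (1.48% of all genes past the filter) and 1 above 1 (0.107%). Of the 35, 10 did not pass the filter on low values, and 3 of these, CXCL9, CXCL10 and CXCL11, were among the 9. The gene above 1 was CXCL10, a chemokine that draws T cells, 1.84 above the median of all arrays. CXCL10 did not pass the filter: its values had a lowest of 3.88, a median of 4.41 and a highest of 6.70 in LR and a lowest of 3.74, a median of 4.55 and a highest of 6.26 in HR. LR replicate 10 was its highest array, at 2.28 above the median, and HR replicate 2 the highest in HR. Picked after its values were seen, CXCL9, another chemokine of this family, lay 2.90 above the median in LR replicate 10 and 0.67 above it in HR replicate 2. In the other direction NMI, a gene of the same list that did not pass the filter either, lay at -1.66 in HR replicate 2.

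Interferons and their receptors did not stand high in HR replicate 2. None of the 18 ligands, receptors and signal proteins with a probe set lay above 0.5, and IFNK, at 0.35, IRF2, at 0.23, and SOCS1, at 0.23, lay highest. IFNG, at a mean of 2.56, IFNK, at 3.69, and IFNE, at 2.27, did not pass the filter, and TYK2, IFNA1 and IFNB1 had no probe set of that name. Of 15 nucleic acid sensors and adaptors none lay above 0.5, with IRF5, IKBKE and TMEM173 highest at 0.34, 0.26 and 0.24. Among 9 MHC class I genes SLA-8 lay above 0.5, at 0.60, and B2M and SLA-3 followed at 0.32 and 0.30.

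Outside these lists, the kept genes of largest deviation in HR replicate 2 were ALB, the albumin gene, at 2.18, LOC100511639 at 2.06, ISG12(A), itself interferon-induced in human, at 1.34, CD48, a surface protein of leukocytes, at 1.28, and SLA-DRA, an MHC class II chain, at 1.25. KLK6, a protease gene of oligodendrocytes, followed at 1.05, then ERI2 at 1.04, LOC100524554 at 0.99, and the MHC class II chains SLA-DQA at 0.98 and SLA-DRB1 at 0.93. In LR replicate 10, CD48, SLA-DRA, SLA-DQA and SLA-DRB1 lay 1.06, 1.53, 1.16 and 1.63 above the median, whereas ALB lay at -0.14 and KLK6 at -0.19.

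Markers of other cell types were read in the same array. Of 6 microglia markers none lay above 0.5 in HR replicate 2, and their mean log2 value of 9.80 ranked 7 of 20. These markers did not move as one: CX3CR1 lay at 0.42, AIF1 at 0.26, C1QA at 0.04, C1QC at 0.02, TREM2 at -0.04 and P2RY12 at -0.71. Of 9 T and NK cell markers CD3G lay above 0.5, at 0.79, and the mean of the list, 5.71, ranked 2 of 20, within a range of 5.12 to 5.65 in LR and 5.12 to 5.77 in HR. Only 4 of these 9 markers passed the filter on low values. No marker of B and plasma cells (3 measured), monocytes and granulocytes (6), erythrocytes (3) or endothelium (5) lay above 0.5. The same held for the 4 neuron and 4 astrocyte markers, whose list means ranked 12 and 8 of 20. Of 8 hypothalamic peptide markers, PMCH lay above 0.5, at 0.77, while AGRP lay at 0.49, OXT at -0.35, TRH at -0.39 and GHRH at -0.46.

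Of 3 oligodendrocyte markers MOG lay above 0.5, at 0.74, and the mean of the list, 12.11, was the highest of 20, within a range of 11.31 to 11.84 in LR and 11.22 to 12.11 in HR. Of 3 choroid plexus markers TTR lay above 0.5, at 0.83, while FOLR1 lay at 0.12 and KL at -0.04. In LR replicate 10 the microglia list (mean 9.99) ranked 2 of 20, the monocyte and granulocyte list (mean 5.23, with 2 of 6 markers past the filter) ranked 1 and the T and NK cell list ranked 5. The markers within each list differed there. From highest to lowest, microglia markers ran from CX3CR1 at 0.56 to TREM2 at -0.04. Monocyte and granulocyte markers ran from S100A12 at 0.79 to CD14 at -0.07, and T and NK cell markers from CD2 at 0.95 to CD3G at -0.24. The part of these cell types in the levels of the interferon response genes was not tested.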

How the data were processed

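Total RNA of 20 hypothalami was hybridised to Affymetrix Porcine Snowball arrays. The authors processed the scans with GCOS 1.1.1, as the submitters' processing notes name it, and normalised them by robust multichip averaging, and the deposited values are log2 intensities of 47845 probe sets. The study's detection filter was not applied to the deposited table. Averaging forces like distributions on all arrays, so a shift shared by most transcripts cannot be seen.

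Of 47722 probe sets that are not controls, the 50% of higher mean were kept (23861, mean at least 5.21), which hold 10317 genes. Genes were named through the platform annotation. A name ending in _s_st or _x_st marks a probe set that may detect more than 1 transcript. This holds for 11 of the 30 members (DDX58, ISG15, OAS1, OAS2, IFIT1, IFIT5, ISG20, BST2, IFI35, GBP1 and PSMB8), whose gene is uncertain. Positions are those of the RefSeq annotation of Sscrofa11.1, found for 29 members, and were used for place only.

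HR and LR were compared with limma 3.58.1 (lmFit and eBayes) in R 4.3.3, with Benjamini-Hochberg adjustment over all 23861 probe sets and a threshold of 0.05. The script was tested on simulated data. Precision is limited by the number of arrays: the 95% interval had a median half-width of 0.29 log2 units. Deviations from the median of the 20 arrays, counts and correlations are descriptions without a test.

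Every member is accounted for. Values by group are given for members more than 1 log2 unit above the median in any array, the 5 of smallest p and those below the filter. Outside the list, the 10 genes of largest deviation in HR replicate 2, genes of fixed lists above 1 unit there (otherwise the 3 highest of a list) and tissue markers are named. The members, the lists and HR replicate 2 as the array to describe were chosen with earlier results of these data known. Alternatives covered the filter, normalisation, centring, array weights, a background covariate, the choice of probe set, a rank test, the size and reference of a deviation, and leaving out each array. Removal of the line on background and the fit without the 4 arrays of lowest background were chosen after seeing the data.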

Additional observations from a re-analysis of the deposited data

Results flagged for a closer look

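Of 60 groups examined (30 genes in LR and in HR), 4 held an array whose distance to its nearest neighbour was large for the range of its group, and chance gives about 1 in 20 such groups. The count lies near that share. The share holds for independent groups, whereas these genes vary together over the same arrays, and HR replicate 2 was picked beforehand. In HR replicate 2, STAT2 stood at 8.55 with the next HR array at 8.22, and XAF1 at 7.74 with the next at 7.02. On the other probe set of STAT2, also past the filter, HR replicate 2 lay 0.18 above the median of all arrays. LR replicate 10 was highest on it, at 0.64. In LR replicate 3, USP18 stood at 5.25 with the next LR array at 5.89, and MX1 at 8.90 with the next at 9.47. LR replicate 3 was 1 of the 4 arrays of lowest background.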

How the results depend on the processing

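No gene of the list passed the adjusted threshold between HR and LR in any of 30 alternatives. At an unadjusted p under 0.05 the count of 0 became 1 (STAT2) with array weights, with the probe sets of a gene averaged, and without the 4 arrays of lowest background, and 3 (STAT2, PSMB8 and IFIT5) with the background control mean as a covariate. When 1 array was left out it lay between 0 and 1, with STAT2 counted without LR replicate 3, LR replicate 8 or HR replicate 2. The median difference was lowest, at -0.11, without HR replicate 2, and highest, at 0.01, without HR replicate 9. STAT2, GBP2, IFI44, GBP1 and MX2 had a negative difference under every alternative that gave one, but the size moved: IFI44 lay between -0.59 and -0.22, GBP1 between -0.52 and -0.16, GBP2 between -0.26 and -0.10, MX2 between -0.37 and -0.04 and STAT2 between -0.27 and -0.16. The count of 4 genes in HR replicate 2 became 12 at 0.5 log2 units, 0 at 2 log2 units and 0 against the highest of the 19 other arrays plus 0.5 units. Under the other alternatives it was between 4 and 6. The detection filter left 4304 probe sets and 5 members (STAT2, IRF9, MX1, MX2 and IFI6), and IFI44, GBP1 and GBP2 gave no value under it. No paired analysis was possible because the replicate numbers come from accession order. The causes of these changes were not tested.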
